A study of Zea mays with 22 samples.

Results

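thi1-2 is a maize gene of the THI1 family, which makes the thiazole ring of thiamine (vitamin B1). It was described here through every array probe whose gene carries thi1-2 among its names in the RefSeq gene table, where it is listed as LOC542715 with the synonyms thi1-2 and thi2. It is 1 of 329 genes named on the arrays, and the rule found 7 probes of 11400, with 3 of 5640 in the table of organs and 4 of 5760 in the table of UV-B regimes. They represent 3 expressed sequence tags (ESTs, partial cDNA sequences spotted on the array): AW313328, AW356013 and AW258120, the last of which was spotted at 2 places (print 1 and print 2) on the arrays of the regimes. The gene was selected on measured log2 ratios of these arrays, without record of which comparison was used, so all of its values are a description and carry no test.

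The study hybridised total RNA of maize to 22 cDNA arrays in 2 colours, most of them with RNA of UV-B exposed plants in one channel and RNA of unexposed control plants in the other. The regimes were 2 h at high, 4 h at medium, 8 h at low and 8 h at high UV-B, each on 2 arrays of opposite channel order and each against control RNA. Their labels name no organ. The organ arrays set seedling leaf, adult leaf, tassel, immature ear and root of plants given 8 h of UV-B against the same organ of control plants. A further set compared adult leaves under PE bags on exposed plants with PE-covered leaves on control plants, and leaves under CA bags with leaves under PE bags on UV-B exposed plants. The labels give CA and PE as letters only. In UV-B work cellulose acetate film lets UV-B through and polyester film absorbs it. Nothing says that the arrays of a group came from separate plants, so the spread between them may be technical.

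THI1 proteins, called THI4 in yeast, build the thiazole part of thiamine in a reaction in which the protein gives up a sulfur atom of its own and is used up. In plants the protein acts in plastids, and the thiazole is then joined to a pyrimidine to make thiamine monophosphate. The end product, thiamine diphosphate (ThDP), is the cofactor of pyruvate dehydrogenase, transketolase and deoxyxylulose phosphate synthase. Arabidopsis THI1 reaches both plastids and mitochondria and was also linked to tolerance of DNA damage in bacterial complementation. Maize has a second member on these arrays, thi1-1, listed as LOC542714.

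Each value is a deposited log2 ratio, averaged over the 3 spots of a probe after the median of its array was set to 0. A value is read here as UV-B exposed over control, or as CA over PE. The files do not state this direction, and every sign in the text rests on it. Arrays of swapped channel order, the second of each pair, are read as already turned, and if they were not, their values would take the opposite sign. The 14 columns of the organ table hold 9 distinct profiles, because seedling leaf, root and tassel columns repeat each other apart from a constant, an ear column repeats another, and the remaining ear column equals a tassel column at 15749 spots. Seedling leaf, tassel, immature ear and root therefore have 1 profile each, and their direction is not settled, since each profile stands under both channel orders. The profile shared by tassel and ear labels was used as tassel, so its organ is not settled either. Between 32.7% and 99.2% of spots held a value on the organ arrays, against 83.0% to 91.7% on the regime arrays. Across probes the arrays of a pair correlated at r = 0.81 for 2 h high, 0.23 for 4 h medium, -0.36 for 8 h low and 0.18 for 8 h high, and at 0.58 for CA over PE and -0.18 for adult leaf. A ratio gives no expression level, so neither the level of thi1-2 nor the labelled organ could be checked, and in bulk tissue fewer cells of a type and less RNA per cell cannot be told apart.

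Under the UV-B regimes the 3 ESTs of thi1-2 did not give a single pattern. AW313328 and AW356013 were below the array median on 8 of 8 arrays, by 0.07 to 0.65 on the log2 scale. AW258120 was slightly above it on 7 of 8 arrays at both of its prints. Among the 4728 probes with 8 values, 72 (1.52%) were below 0 on every array, and 8 of the 344 of these probes that carry 1 gene name did so. These counts take the swapped arrays as already turned. With those arrays turned, 97 probes (2.05%) were below 0 on every array, AW313328 and AW356013 were below it on 4 of 8, and both prints of AW258120 on 3 of 8.

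AW313328 read -0.15 and -0.47 after 2 h high, -0.35 and -0.39 after 4 h medium, -0.24 and -0.65 after 8 h low and -0.54 and -0.07 after 8 h high UV-B. The group means were -0.31 ± 0.23, -0.37 ± 0.03, -0.45 ± 0.29 and -0.30 ± 0.34 in that order of regimes (SD, n = 2 arrays). All 4 regimes overlapped, and the lowest and highest arrays belonged to the 8 h exposures. The first 2 h value rested on 2 spots, and the others on 3.

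AW356013 read -0.15 and -0.15 after 2 h high, -0.22 and -0.57 after 4 h medium, -0.16 and -0.49 after 8 h low and -0.21 and -0.16 after 8 h high UV-B. Its means were -0.15 ± 0.0014, -0.40 ± 0.25, -0.32 ± 0.23 and -0.19 ± 0.04 (SD, n = 2 arrays). The 2 h high arrays were nearly equal and lay above every array of the other regimes, although the gap to 8 h high was only 0.04 between means. The 3 spots of the second 4 h array had an SD of 0.31, the widest among the regime values of thi1-2. The difference of means between 2 h high and 4 h medium was 0.25, and between 2 h high and 8 h low 0.17, each about as large as the spread between arrays of the longer regimes. Taken by array number these differences were 0.07 and 0.42, and 0.01 and 0.34.

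AW258120 print 1 read 0.03 and 0.16 after 2 h high, 0.09 and 0.09 after 4 h medium, 0.14 and -0.50 after 8 h low and 0.39 and 0.01 after 8 h high UV-B. Print 2 read 0.02 and 0.17, 0.01 and 0.21, 0.12 and -0.59, and 0.34 and 0.02 in the same order. The only array on which the EST fell below the median was the second 8 h low array, at both prints. On that array all 4 probes of thi1-2 read between -0.65 and -0.49. It had the widest spread over probes of the regime arrays (SD 0.43), and these values lay at percentiles 10.2 to 17.8. With print block medians at 0, the 8 h low means were -0.01 and -0.07 at prints 1 and 2, -0.15 for AW356013 and -0.33 for AW313328. Values above 0 on at least 7 of 8 arrays were held by 259 of the 4728 probes (5.48%). The mean of 8 h high exceeded that of 8 h low by 0.38 at print 1 and by 0.42 at print 2. The arrays overlapped at each print, with SDs of 0.53 and 0.55 for these differences. They were 0.19 and 0.23 with print block medians at 0, and 0.22 and 0.24 with arrays scaled to one spread. Without the second 8 h low array they were 0.05 and 0.06, and with swapped arrays turned -0.13 and -0.20. Same-numbered arrays share their channel order and deviated together across probes, and taken by number the difference was 0.24 and 0.51 at print 1 and 0.22 and 0.61 at print 2, above 0 in both pairs. Of the 5 differences between regimes described here, 1 kept its sign in both pairs at each print of AW258120 and for AW313328, and 4 did for AW356013.

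**Figure D1:**
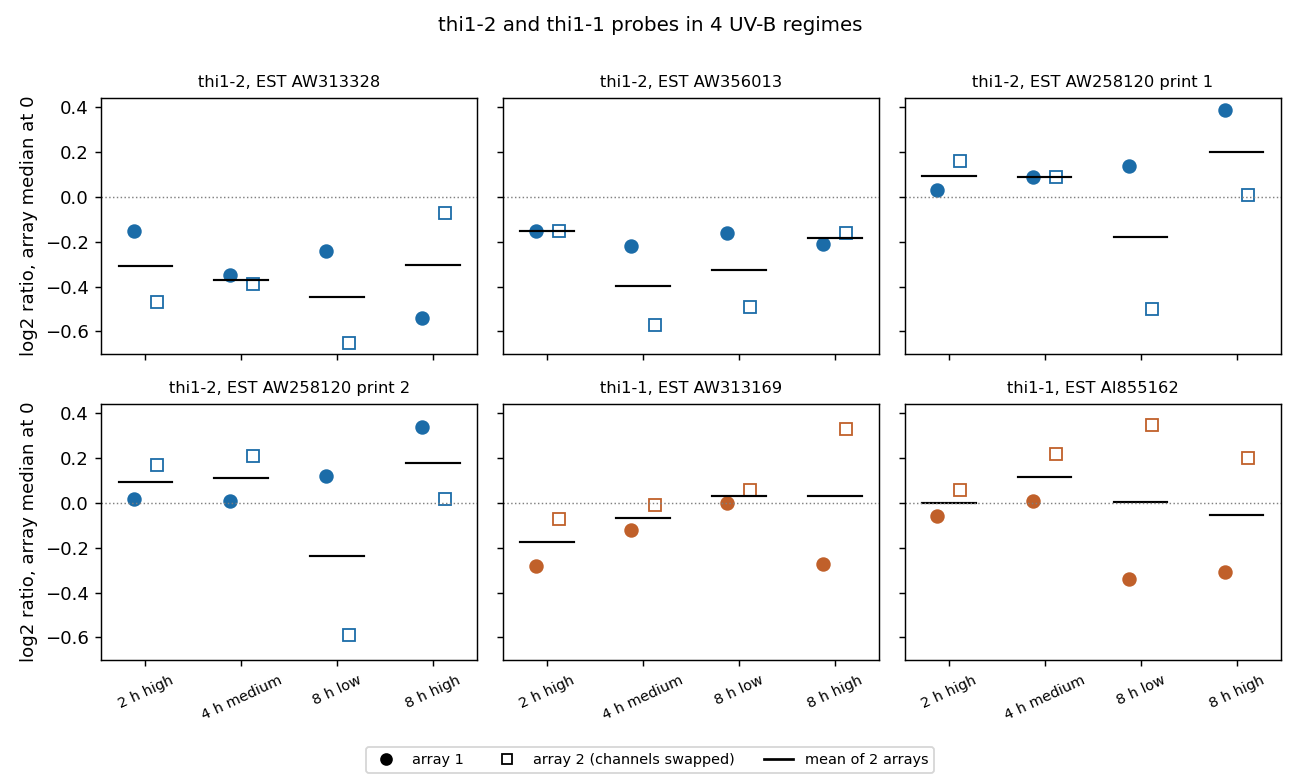
log2 ratio of UV-B exposed over control RNA (array median at 0) for the 4 thi1-2 probes in blue and the 2 thi1-1 ESTs in orange, with 1 panel per probe and the 4 regimes along the horizontal axis. Filled circles are array 1, open squares array 2 with swapped channels, and bars the mean of both. AW313328 and AW356013 lie below 0 on all 8 arrays, both prints of AW258120 lie above 0 on 7 of 8, and thi1-1 lies on both sides of 0.

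The distance between the ESTs was larger than the distance between prints of one EST. Prints 1 and 2 of AW258120 differed by a median of 0.038 and at most by 0.12 over 8 arrays, with r = 0.97, a rank correlation of 0.74 and the same sign on 8 of 8. AW313328 and AW356013 shared their sign on 8 of 8 arrays, with r = 0.51 and a median difference of 0.15. AW258120 shared its sign with either of them on 1 of 8 arrays, the second 8 h low array, and the median differences lay between 0.25 and 0.42.

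Other genes with several ESTs also showed disagreement between them. Of 71 pairs of different ESTs, from 50 other genes, the median r over the regime arrays was 0.08, with 30 pairs below 0, and the median difference was 0.21. A median difference of at least 0.251, the smallest between AW258120 and another EST of thi1-2, was reached by 23 of the 71 pairs (32.4%), and one of at least 0.418, the largest, by 1 (1.41%). A shared sign on at most 1 array was seen in 3 of them (4.23%). The 6 pairs of prints of one EST had a median r of 0.715 and a median difference of 0.091. All these correlations are descriptions over the same 8 arrays, and no level of any probe is known. Whether the ESTs of thi1-2 also bind the transcript of thi1-1 was not tested.

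**Figure D2:**
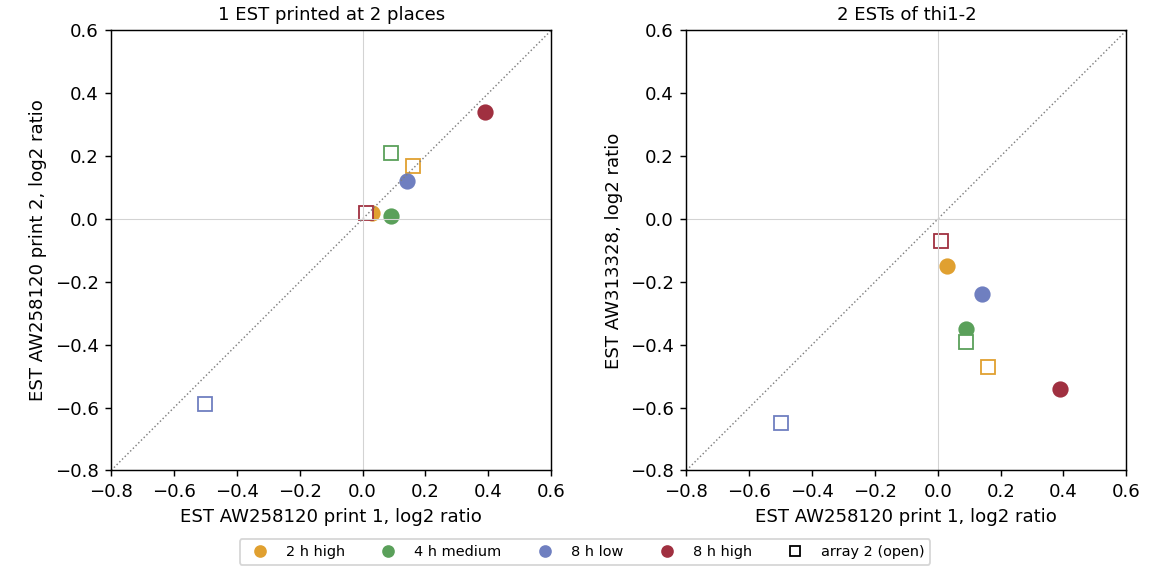
log2 ratio of AW258120 print 1 (horizontal axes) against AW258120 print 2 (left) and against AW313328 (right), with 1 point per regime array, colours for the regimes, open squares for array 2 and a dotted line where both probes would be equal. The prints lie close to the line (r = 0.97), whereas AW313328 lies below it on every array.

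In the organs and bag comparisons AW356013 gave the 2 most extreme readings of the gene. In the seedling leaf profile its log2 ratio was 1.27, a ratio of 2.42 of UV-B exposed over control seedlings. Of 4629 probes with a value there, 14 (0.302%) were higher, and 48 (1.04%) exceeded 1. The other ESTs did not follow it, since AW313328 read 0.15 and AW258120 -0.24 in the same profile. The seedling value rests on 1 profile whose sign is not settled. With the sign turned it would be -1.27, and the same 14 probes would be lower.

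Leaves under CA bags had lower AW356013 signal than leaves under PE bags on both arrays, at -0.60 and -0.95. The mean was -0.77 ± 0.24 (SD, n = 2 arrays), a ratio of 0.585. A log2 ratio below -0.5 on both arrays was held by 84 of 3286 probes (2.56%), and 40 (1.22%) had a lower mean. AW313328 read -0.41 on the second array, from 1 spot, and had no value on the first. AW258120 read 0.13 and 0.05, so it stood above the median where AW356013 stood far below it.

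Adult leaf, which was not labelled as bagged, had no value as far from 0. AW356013 read -0.12 and 0.07 there, a mean of -0.02 ± 0.14 (SD, n = 2 arrays). AW258120 read -0.26 and 0.35, with the arrays on opposite sides of 0, and AW313328 read -0.09 on the first array alone. The medians of the plate of AW258120 were 0.02 and 0.32 on these arrays, and with plate medians at 0 its mean was -0.13. Neither of the ESTs with 2 adult leaf values held its sign. In PE-covered leaves of exposed plants over PE-covered leaves of controls, AW356013 read 0.23, AW313328 -0.38 and AW258120 -0.17, from 1 array.

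In the profile used as tassel, which also stands under an ear label, all 3 ESTs read below 0. AW356013 read -0.31, AW313328 -0.24 and AW258120 -0.14. In root, AW313328 read 0.66 from a single spot, against -0.22 for AW356013 and -0.39 for AW258120. The profile under ear labels alone had a value only for AW258120, -0.38 from 1 spot. Root and seedling leaf were the profiles in which the ESTs lay farthest apart, by 1.05 and 1.52, and adult leaf array 1 and tassel those in which 3 ESTs lay closest, by 0.17 each.

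Ordered by AW356013, the profiles ran from seedling leaf (1.27) through PE-covered leaf (0.23), adult leaf (-0.02), root (-0.22) and tassel (-0.31) to CA over PE (-0.77). Ordered by AW258120, they ran from CA over PE (0.09) and adult leaf (0.04) through tassel (-0.14), PE-covered leaf (-0.17), seedling leaf (-0.24) and immature ear (-0.38) to root (-0.39). CA over PE was at the low end of the first order and at the high end of the second. Both orders rest on the signs as read. With swapped arrays turned, AW356013 would be at -1.27 in seedling leaf and at 0.17 in CA over PE, and the signs of the tassel, ear and root profiles are not settled either. The organ of the tassel profile is not settled, since it also stands under an ear label. The median SD between the 2 arrays of a group was 0.18 over all probes of this table. Root and tassel lay closer than that for AW356013, as did most neighbours in the order of AW258120, whose widest step, between adult leaf and tassel, was about that size. With plate medians at 0 that step was reversed, with AW258120 at -0.13 in adult leaf and -0.04 in tassel. Over 8 shared profiles the ESTs correlated at r = -0.31 and differed by up to 1.52.

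**Figure D3:**
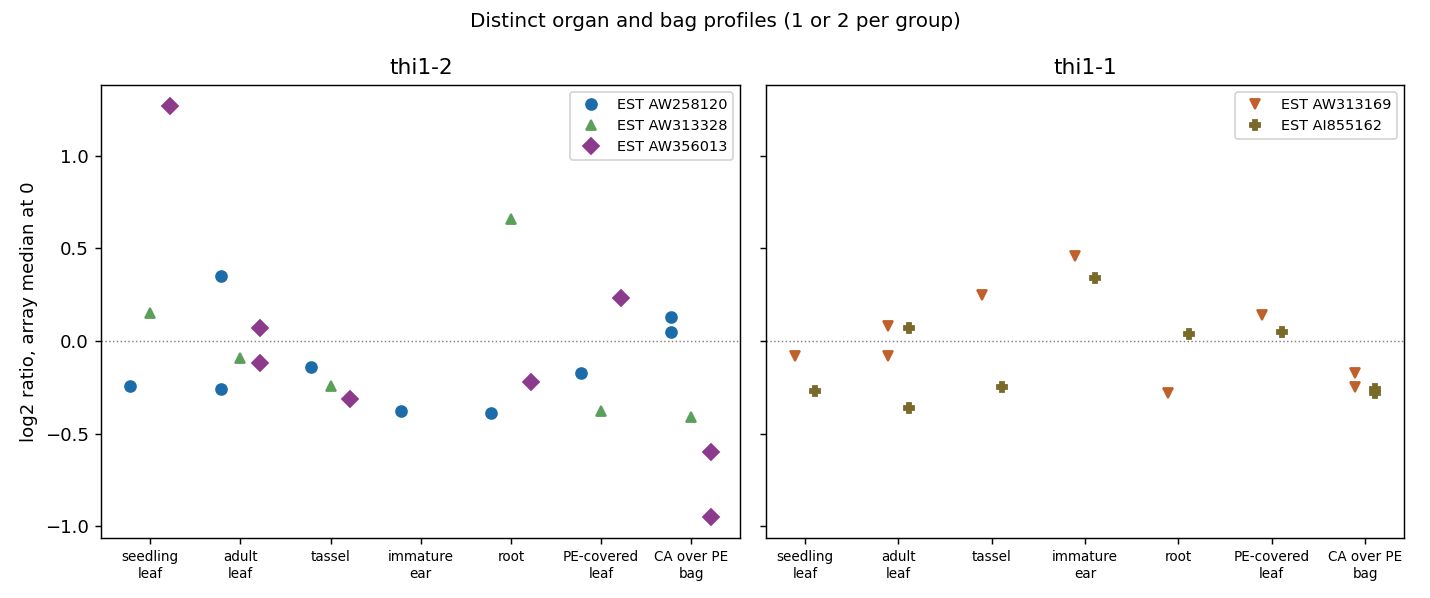
log2 ratio (array median at 0) of each EST of thi1-2 (left) and of thi1-1 (right) in each distinct profile, as UV-B exposed over control for the organs and PE-covered leaf and as CA over PE in the last column. Each point is 1 profile, and the one drawn as tassel also stands under an ear label. AW356013 stands at 1.27 in seedling leaf and at -0.60 and -0.95 in CA over PE, AW258120 stays between -0.39 and 0.35, and no thi1-1 value passes 0.5 in size.

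thi1-1, the other member of the family, is set beside it with no test of the difference. No value of its 2 ESTs passed 0.5 in size, over 18 organ and 16 regime values. Of thi1-2, 4 of 23 organ values did. In the regimes 2 of 8 values of AW313328, 1 of 8 of AW356013 and 1 of 8 at each print of AW258120 passed it. At both prints this was the second 8 h low array, which also held the lowest AW313328 value, -0.65. Over all probes, 14.8% of organ and 7.45% of regime values passed 0.5. Of the organ values of thi1-2 beyond 0.5, 3 belonged to AW356013 and 1, from a single spot, to AW313328, whereas AW258120 had none and, at -0.39 to 0.35, ranged no wider than the pooled values of thi1-1, at -0.36 to 0.46. Among the regimes AW313169 read -0.28 and -0.07 after 2 h high, -0.12 and -0.01 after 4 h medium, 0.00 and 0.06 after 8 h low and -0.27 and 0.33 after 8 h high UV-B. AI855162 read -0.06 and 0.06, 0.01 and 0.22, -0.34 and 0.35, and -0.31 and 0.20 in the same order. The ESTs of thi1-1 straddled 0 over the regimes, and neither kept a sign on all 8 arrays.

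Set beside thi1-1 on the same arrays, AW313328 was lower than each thi1-1 EST on 7 of 8 regime arrays, by a median of 0.32 in both cases. AW356013 was lower than each on 6 of 8. AW258120 print 1 was lower than AW313169 on 2 of 8 and lower than AI855162 on 3 of 8. At print 2 it was lower than them on 2 of 8 and 4 of 8, with a median difference of 0.04 from AI855162. AW313328 and AW356013 therefore lay under thi1-1 on most arrays, whereas AW258120 lay over AW313169 on most and close to AI855162 at print 2.

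In CA over PE, thi1-1 read -0.25 and -0.17 at AW313169 and -0.26 and -0.28 at AI855162. All 4 values were negative, as were those of AW356013, and smaller in size. In seedling leaf thi1-1 read -0.08 and -0.27, and in the ear 0.46 and 0.34. On the ear profile the plate of AW313169 had a median of -0.16 and that of AI855162 one of 0.33, nearly the whole value of AI855162. No EST of thi1-1 shared the high seedling value of AW356013. In root the ESTs read -0.28 and 0.04 and in tassel 0.25 and -0.25, with opposite signs.

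Among probes with a gene name, the list of other genes that bear on thiamine held thi1-1, dxs1, dxs2 and PDHE1-B. It was drawn from gene symbols and synonyms, and 5354 of the 5760 regime probes carry no gene name. dxs1 and dxs2 encode deoxyxylulose phosphate synthase, a ThDP-dependent enzyme at the start of plastid isoprenoid synthesis, and PDHE1-B encodes a subunit of the ThDP-dependent pyruvate dehydrogenase. After 2 h high UV-B, 1 of the 5 probes passed the test (limma across all probes, adjusted p below 0.05), against 13.7% of all probes in either direction. This was dxs1, which rose by 0.58 ± 0.14 (SE) with an adjusted p of 0.00162 from limma. Its arrays read 0.71 and 0.46. It shares an inferred print plate whose medians were 0.45 and 0.27 on those arrays, and with plate medians at 0 it read 0.23 with an adjusted p of 0.349 in limma, and without the first 2 h array 0.36 with 0.579.

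None of the 5 probes passed after 4 h medium, 8 h low or 8 h high UV-B, where 0.303%, 0.387% and 3.78% of all probes did. dxs2 stayed between -0.16 and 0.09 in the fit. PDHE1-B was at -0.07 after 2 h high, -0.19 after 4 h medium, -0.34 after 8 h low and -0.31 after 8 h high, the last 2 with adjusted p of 0.227 and 0.313 in limma. With plate medians at 0 it read -0.02, -0.09, -0.21 and -0.28 in these regimes. The list's median log2 ratio was -0.07, -0.07, 0.00 and -0.03 over the regimes in order of exposure, beside -0.01, 0.00, -0.01 and 0.00 for all probes tested. In adult leaf and in CA over PE only the 2 ESTs of thi1-1 could be tested, and neither passed, against 1.58% and 3.62% of all probes. dxs1 read -0.58 and -0.81 in CA over PE. The fit did not include it, because it read -0.12 on the first adult leaf array but had no value on the second. The medians of its plate were -0.22 and -0.30 on the CA over PE arrays, and with plate medians at 0 it read -0.36 and -0.51.

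**Figure D4:**
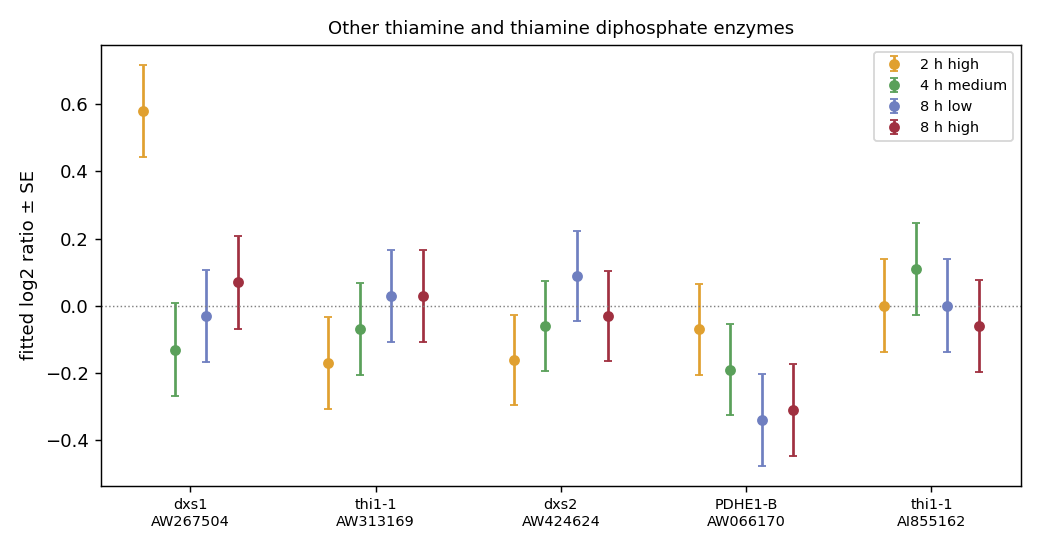
Fitted log2 ratio of UV-B exposed over control (vertical axis, limma) with its SE for the 5 probes of the thiamine and ThDP list other than thi1-2, in the 4 regimes shown by colour. dxs1 stands at 0.58 after 2 h high UV-B, and the PDHE1-B values are below 0 in all 4 regimes, down to -0.34 after 8 h low.

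Plastid photosynthesis genes were set beside thi1-2 because its product works in the same compartment. Of 9 probes, 0 passed after 2 h high and 4 h medium, 1 fell after 8 h low and 3 fell after 8 h high UV-B (limma, adjusted p below 0.05). The shares over all probes in these regimes were the 13.7%, 0.303%, 0.387% and 3.78% given above. lhcb5, a light-harvesting antenna protein, was called in both, at -0.73 after 8 h low and -0.81 after 8 h high. Its 8 h low arrays read -0.15 and -1.31, and leaving out the first or the second gave -1.17 or -0.29. The others after 8 h high were por, which makes chlorophyllide, at -0.68, and psbs1, the photoprotective subunit of photosystem II, at -0.86. Without the first or the second 8 h high array no probe of the list passed after 8 h high, while psbs1 stood at -0.90 or -0.82, lhcb5 at -0.86 or -0.77 and por at -0.49 or -0.88. After 8 h low, lhcb5 stayed at -0.73 without either 8 h high array but did not pass. The count there was 0 without the second 8 h low array, and 3 without the first, where 20.5% of all probes passed. AW356013 and AW313328 were at their lowest means after 4 h medium and 8 h low, where 0 and 1 of these probes passed. No probe of the list passed in adult leaf or CA over PE, with 4 of 9 tested in each.

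By likeness of profile, AW313328 was nearest over the regimes to the homeobox gene wox13A (r = 0.92) and to prp2 (0.86), among 369 probes with 1 gene name. AW356013 was nearest to COR413-TM1 (r = 0.87) and CCR, a lignin pathway reductase (0.86). Next came pht7 (0.84), LOC541865 (0.81) and, last of its nearest 5, dxr (0.81), the enzyme that acts on the product of dxs. AW258120 was nearest to the aldehyde dehydrogenase gene aldh5 at print 1 (r = 0.97) and to rmr7 at print 2 (0.95), and both genes were among the nearest 5 at either print. The second 8 h low array, at -0.50 and -0.59, lay far below the other arrays at both prints. How far these r rest on that array was not tested. Between the prints themselves r was 0.97 and the rank correlation 0.74. Over the regimes no gene was among the nearest 5 of more than one EST.

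Over the organ table AW258120 was nearest to phb4 (r = 0.94 over 9 profiles, 269 probes) and AW356013 to sam2 (0.95 over 7) and to the seed globulin gene glb1 (0.91 over 8, 251 probes). AW313328 shared too few profiles with any probe for this comparison. These are the highest of many correlations over 7 to 9 points from shared arrays, and are given as a description.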

How the data were processed

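Total RNA of maize was compared on 22 spotted cDNA arrays in 2 colours. The files hold log2 ratios per spot as deposited. Neither files nor labels state the authors' scale, centring or direction. The base was inferred: of the values repeated on an array, 12.1% to 39.3% matched log2 ratios of integers up to 30, against 0.769% to 4.76% for natural logs. The depth of such arrays is not a count, and the number of arrays limits the precision. Spots of a probe (3 in a row, in 8 print blocks) were averaged and each array's median set to 0. Groups came from the sample labels. Columns repeating another were used once. Probes were named from the platform annotation, updated by gene ID through the RefSeq gene table (names only, since the files name no build). 399 probes of the organ table and 404 of the regime table have 1 gene.

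limma 3.58.1 (R 4.3.3) was fitted across all probes, to the 8 regime arrays together and to the 4 adult leaf and CA over PE arrays together, with channel order as a term and Benjamini-Hochberg adjustment at 0.05. The second fit has 1 residual degree of freedom and gives every probe the same SE of 0.233. Channel order equals the replicate number, so this term is the replicate block. The labels mark the second arrays as swapped, and same-numbered arrays deviated together in 6 of 6 pairs of regimes (r across probes 0.20 to 0.56). The fits were tested on simulated data with noise drawn independently for each array, which does not cover arrays that deviate together. Genes were named by a rule: all thi1 probes, the thiamine and ThDP enzymes, the plastid photosynthesis list, and the 5 probes most like each thi1-2 probe over at least 7 profiles. The gene, the lists and the tests were chosen with earlier results of these data known, and differences by array number were added after the data were seen.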

Additional observations from a re-analysis of the deposited data

Results flagged for a closer look

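Some genes set beside thi1-2 had both arrays of one regime on one side of 0 and both arrays of another on the opposite side. These differences were not tested, and no thi1-2 probe showed such a pattern. dxs1 read -0.14 and -0.13 after 4 h medium, against 0.71 and 0.46 after 2 h high UV-B, a difference of means of -0.71. With plate medians at 0 it averaged -0.08 after 4 h medium and 0.23 after 2 h high. The thi1-1 EST AW313169 was higher after 8 h low than after 2 h high by 0.21 and than after 4 h medium by 0.10. Its 8 h low values, 0.00 and 0.06, hardly left 0. The medians of its plate were -0.20 and -0.04 after 2 h high, -0.04 and 0.08 after 4 h medium and -0.08 and 0.16 after 8 h low. The differences of this EST are therefore not separate from those of its plate. The photosystem I gene psan1 read -0.08 and -0.33 after 8 h high and 0.04 and 0.15 after 2 h high, a difference of -0.31. The Rubisco activase gene rca1 read -0.27 and -0.08 after 8 h high. This was -0.40 from its mean after 4 h medium (0.07 and 0.38) and -0.53 from its mean after 8 h low (0.00 and 0.72).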

How the results depend on the processing

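The sign given to the swapped arrays mattered most. With them turned, AW313328 averaged 0.16 after 2 h high, 0.02 after 4 h medium and 0.20 after 8 h low, AW356013 0.00, 0.18, 0.16 and, after 8 h high, -0.03, AW258120 print 1 -0.07, 0.00 and 0.32 and print 2 -0.07, -0.10 and 0.35. In CA over PE AW313328 was then 0.41 and AW356013 0.17, and in seedling leaf AW258120 was 0.24, AW313328 -0.15 and AW356013 -1.27. Between regimes, 8 h high minus 8 h low became -0.44 for AW313328, -0.19 for AW356013 and -0.20 for print 2. 2 h high minus 8 h low became -0.16 for AW356013, -0.39 for print 1 and -0.43 for print 2. 4 h medium minus 8 h low became -0.32 and -0.45 for the prints, and 2 h high minus 4 h medium -0.18 for AW356013. With print block medians at 0, AW356013 was 0.93 in seedling leaf, 0.13 in adult leaf and -0.14 after 2 h high, AW313328 -0.62 in CA over PE and -0.25 after 4 h medium, and AW258120 0.02 in CA over PE. With plate medians at 0, AW258120 was 0.01 in CA over PE and print 1 0.06 after 4 h medium. AW313328 was -0.46 in tassel and -0.30 after 4 h medium, AW356013 -0.09 after 2 h high, and its 8 h high minus 2 h high -0.13. With arrays scaled to one spread, AW356013 was 1.08 in seedling leaf and -0.13 after 2 h high, AW313328 -0.53 and print 1 0.13 after 4 h medium. As deposited, AW356013 was -0.21 in adult leaf and -0.18 after 2 h high. With the median of 3 spots it was -0.12 after 2 h high, and print 1 0.07 after 4 h medium. The other 166 values and 110 differences under these settings moved by less than the spread between arrays. Some of them still changed sign, such as 8 h high minus 8 h low at print 1, which went from 0.38 to -0.13 with swapped arrays turned. With 1 array left out, a mean becomes the value of the other array, so such moves cannot exceed that spread. AW313328 after 8 h high was then -0.54 or -0.07, and print 1 after 8 h low -0.50 or 0.14.

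Without the replicate block the thiamine list had 1 call in CA over PE, dxs1. The photosynthesis list had 1 in CA over PE, 0 after 8 h low and 1 after 8 h high. Over all probes that setting called 3 of 4911 after 8 h low and 45 of 5228 after 8 h high. Array weights gave 3 calls to the thiamine list after 2 h high. They gave the photosynthesis list 3 after 2 h high, 3 after 4 h medium and 0 after 8 h low. Over all probes they called 2624 of 5199 after 2 h high, 681 of 5287 after 4 h medium and 3 of 4906 after 8 h low. With plate medians at 0 the thiamine list had 0 after 2 h high, where 515 of 5199 probes passed. With block medians at 0 the photosynthesis list had 1 after 2 h high and 0 after 8 h low, where 1422 of 5199 and 9 of 4906 probes passed. With swapped arrays turned, calls were 0 for the thiamine list after 2 h high and for the photosynthesis list after 8 h low and 8 h high. Leaving out 1 array at a time gave 0 to 1 calls for the thiamine list after 2 h high, and for the photosynthesis list 0 to 1 after 2 h high, 0 to 3 after 8 h low and 0 to 3 after 8 h high. The cause was not tested in any of these cases. Leave-one-out fits of adult leaf and CA over PE could not be run, because no residual degree of freedom is left. Over all probes, plate medians at 0 gave 0 calls in adult leaf (31 as reported) and 12 in CA over PE (71), all 12 of them shared, and omitting the block gave 135 of 3286 in CA over PE. Over the same settings, leaving out arrays aside, calls ran from 0 to 2624 after 2 h high (714 as reported), 0 to 681 after 4 h medium (16), 0 to 54 after 8 h low (19) and 0 to 400 after 8 h high (197). Leaving out 1 array gave 247 to 1145, 5 to 16, 3 to 1005 and 6 to 298 in the same order. The 1005 came without the first 8 h low array, and the counts after 8 h high were 16 and 6 without its first and second arrays. The values of thi1-2 come from no fit, and its differences between regimes by array number stand in the text.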
